A study of Homo sapiens with 9 samples.

Results

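RNA was compared between 3 libraries of KYSE180 cells carrying shEZH2#1, a short hairpin RNA against EZH2, and 3 libraries carrying shluc, a hairpin against luciferase that has no target in human cells. KYSE180 is an established human esophageal squamous cell carcinoma line, which the series title calls KDM6A-deficient. All libraries, controls included, came from cells that had received 6 Gy of ionizing radiation, so the comparison describes lowering of EZH2 in irradiated cells and holds no unirradiated reference. A genotype label calls the hairpin cells "EZH2 knockout" and the controls "WT", but the titles name hairpins, and EZH2 RNA was still present in every shEZH2#1 library. The 6 libraries are part of a series of 9, in which 3 further libraries carry another EZH2 hairpin, shEZH2#3. Of 57905 genes in the count table, 13252 had enough counts to be tested, and all of them are the subject here. Whether the replicates of a group came from separate cultures is not stated in the labels. The p-values therefore reflect how much these libraries varied, which may be no more than technical variation.

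EZH2 is the catalytic subunit of Polycomb repressive complex 2 (PRC2), which places methyl groups on lysine 27 of histone H3 and is known for keeping developmental genes silent. EED and SUZ12 are its core partners, EZH1 is a paralog that can take the place of EZH2, and KDM6A (UTX) removes the same mark. EZH2 is itself a gene that dividing cells express, and it is often abundant in squamous carcinomas. Ionizing radiation breaks DNA, and cells are known to answer with p53-driven arrest and cell death genes, with repair, and with inflammatory and interferon signals.

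Library totals were 18563879 to 19508444 estimated counts in shluc and 14958011 to 16946226 in shEZH2#1, and 1 count was worth 0.0399 to 0.0735 CPM (counts scaled to library size by the TMM method, the CPM of edgeR). Libraries of a group differed by far more than counting noise (chi-square per degree of freedom 14.5 to 56.4). Of the squamous epithelial markers, 9 of 16 were tested: KRT17 had 20283 to 27236 counts in every library and PERP, ITGA6 and ITGB4 were also present, whereas TP63 had 5 to 22 counts, KRT5 0 to 15, and KRT14, SOX2, DSG3, DSC3, CLCA2 and PKP1 at most 6. Markers of other cell types were partly at 0. Of 14 immune markers 7 were at 0 in all 6 libraries (PTPRC and CD3E among them) and 3 were tested, with CD68 at 229 to 472 counts and CSF1R at 42 to 67. Of 12 fibroblast and smooth muscle markers 3 were at 0 (PDGFRA, COL1A2 and POSTN) and 6 were tested, with COL1A1 at 359 to 1070 counts and DCN at 229 to 480. Of 9 endothelial markers 3 were at 0 (KDR among them) and 3 were tested, with CDH5 at 97 to 493 counts and ESAM at 335 to 442. The summed levels were 24.0 to 30.6 unscaled CPM in shluc and 18.5 to 24.3 in shEZH2#1 for immune markers. They were 78.3 to 81.4 and 52.1 to 69.5 for fibroblast and smooth muscle markers, and 37.4 to 49.7 and 30.1 to 34.3 for endothelial ones. After TMM scaling, the tested immune markers summed to 20.9 to 25.2 CPM in shluc and 18.7 to 23.9 in shEZH2#1. The tested fibroblast and smooth muscle markers summed to 61.2 to 70.3 and 56.0 to 65.0, so in both lists the groups overlapped. The tested endothelial markers summed to 33.0 to 38.8 and 32.5 to 32.9. The part of these markers in the results was not tested. A pair of abundant identifiers without a symbol, ENSG00000266658 and ENSG00000272060, took 6.96 to 9.28% of counts in shluc and 15.8 to 22.6% in shEZH2#1. The 10 most abundant genes took 14.7% ± 0.986 and 24.6% ± 3.20 (SD, n = 3). The split of calls with these 2 identifiers left out is given beside the counts below, and any other part of these shares was not tested. In bulk RNA, fewer cells of a kind and less RNA per cell cannot be told apart.

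EZH2 (ENSG00000106462, chromosome 7, 148807383 to 148884321, GRCh38, minus strand) was read first, as the target of the hairpin. It measured 18.4, 20.1 and 19.5 CPM in shluc and 11.6, 11.4 and 7.28 CPM in shEZH2#1, replicates in order. All 3 hairpin libraries lay below all 3 controls, and the replicate 3 library was the lowest. The log2 fold change was -0.94 ± 0.18, adjusted p = 0.00163 by edgeR's quasi-likelihood test with Benjamini-Hochberg adjustment, and -0.73, adjusted p = 0.004, after the correction for GC content and length described below. It passed the test when any of the 6 libraries was left out. Fold changes below are log2 values of shEZH2#1 over shluc with their standard errors, and each adjusted p is from that test. The other PRC2 core genes did not pass: EED stood at -0.26 (adjusted p = 0.411), SUZ12 at -0.21 (adjusted p = 0.642) and EZH1 at -0.16 (adjusted p = 0.661) on the log2 scale, and the values of SUZ12 and EZH1 turned above 0 with the correction (0.13 and 0.06). KDM6A was low in both groups, at 3.59, 4.75 and 3.26 CPM in shluc and 3.63, 3.14 and 3.9 CPM in shEZH2#1, and gave -0.13 ± 0.25, adjusted p = 0.759, and 0.21 with the correction.

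Across all tested genes, 2523 (19%) passed an adjusted p of 0.05, 1478 of them higher (11.2%) and 1045 lower (7.89%) in shEZH2#1. The split depended on scaling and filtering: with the 2 abundant unnamed identifiers left out it was 1707 higher and 779 lower, and with a stricter filter on low counts 1354 and 1508. The calls were ordered by base composition. When the genes were cut into 10 equal bins by the GC content of their longest transcript, the poorest bin (median 37.5% G and C) held 4 calls higher and 80 lower. The richest bin (median 64.8%) held 516 higher and 18 lower. The median log2 fold change ran from -0.27 in the poorest bin to 0.47 in the richest, against -0.07 over all genes. Over the 12949 genes with a known GC content, Spearman's rho between fold change and GC content was 0.470, given as a description because all genes share the same 6 libraries. Longer transcripts, which tend to be poorer in G and C, had lower fold changes (rho -0.330).

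To show what the trend refers to, 90 bases of coding sequence are printed for 4 genes whose call depended on it, each the stretch inside a coding exon whose composition is nearest to that of the whole transcript (GENCODE 29, GRCh38, coding strand 5′ to 3′, G and C in capitals). CPEB4 and CDK6, from transcripts with 38.5% and 39.5% G and C, were called lower before the correction and not after it. PRRX2, at 69%, was called higher before and not after, and TSPAN10, at 66.6%, was called lower after it only.
CPEB4, coding exon 1, chr5:173890048-173890137, plus strand: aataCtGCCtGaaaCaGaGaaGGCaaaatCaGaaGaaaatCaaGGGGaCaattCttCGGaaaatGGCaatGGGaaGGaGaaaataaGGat
CDK6, coding exon 2, chr7:92774742-92774831, minus strand: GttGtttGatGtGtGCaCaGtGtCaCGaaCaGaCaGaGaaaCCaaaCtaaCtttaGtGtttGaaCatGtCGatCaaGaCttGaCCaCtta
PRRX2, coding exon 2, chr9:129719235-129719324, plus strand: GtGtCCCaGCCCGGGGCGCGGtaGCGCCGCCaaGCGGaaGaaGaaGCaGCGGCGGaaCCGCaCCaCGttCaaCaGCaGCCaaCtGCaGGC
TSPAN10, coding exon 2, chr17:81642321-81642410, plus strand: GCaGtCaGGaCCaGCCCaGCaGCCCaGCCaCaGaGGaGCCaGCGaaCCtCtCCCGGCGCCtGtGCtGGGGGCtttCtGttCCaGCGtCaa

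The trend differed between libraries of the same group. The slope on GC content of log2 CPM relative to each gene's mean over the 6 libraries, per 10 percentage points, was -0.017, -0.320 and -0.068 in shluc replicates 1 to 3 and 0.027, 0.146 and 0.232 in shEZH2#1 replicates 1 to 3. The 2 groups did not overlap, but shluc replicate 2 lay farther from the other controls than these did from shEZH2#1 replicate 1. An exact two-sided permutation test over the 6 slopes gave p = 0.1, the smallest that 3 against 3 libraries allow. Without shluc replicate 2, Spearman's rho of fold change and GC content was 0.339, the low end of a range that reached 0.538 over the removal of each of the 6 libraries. It was present at every expression level (rho 0.378, 0.417 and 0.612 for genes of low, middle and high expression) and was steeper in protein-coding genes (0.483) than in other types (0.228). The trend was not particular to shEZH2#1. Against the same mean over the 6 libraries, the slopes of shEZH2#3 replicates 1 to 3 were 0.311, 0.468 and 0.349, above every shEZH2#1 slope. Whether the trend comes from the hairpin, the cells or the preparation of the libraries was not tested.

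**Figure D1:**
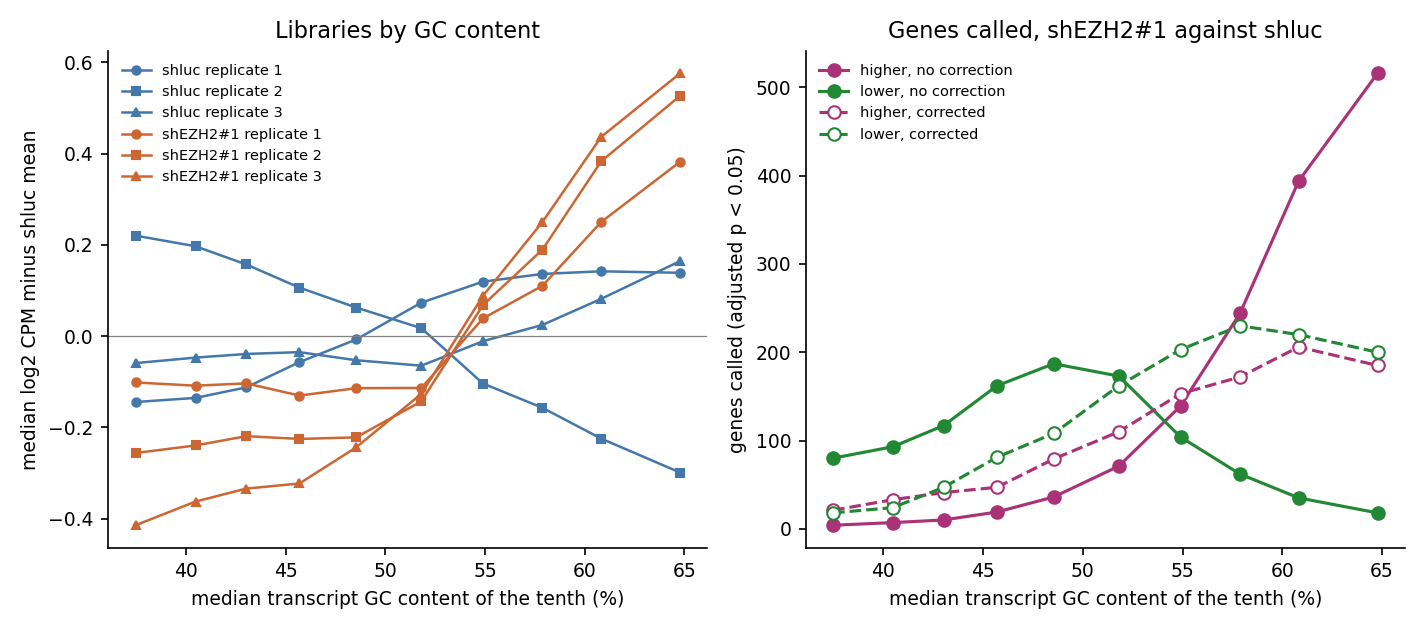
Left, median log2 CPM relative to the shluc mean (y axis) in each of 10 bins of genes by transcript GC content (x axis, percent), 1 line per library. Right, genes called higher or lower in each bin without (filled) and with (open) the GC and length correction. The 3 shEZH2#1 lines climb over the GC-rich bins while that of shluc replicate 2 falls from left to right. The other controls end higher than they start, at -0.14 and 0.14 for shluc replicate 1 and -0.06 and 0.16 for replicate 3. The calls higher run from 4 in the poorest bin to 516 in the richest without the correction and from 21 to 185 with it.

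The fit was therefore repeated with a smooth of each library's values on GC content and length taken out. By construction this flattens the trend: the correlation with GC content then stood at -0.072, and the median fold change of the GC bins ran from -0.052 to 0.038. The estimated biological coefficient of variation fell from 0.177 to 0.135. The corrected fit called 2400 genes (18.1%), 1089 higher (8.22%) and 1311 lower (9.89%), so the balance between the directions turned over. Both fits called 1490 genes with the same sign (11.2%), 859 higher (6.48%) and 631 lower (4.76%), and no gene was called with opposite signs. Leaving out single libraries gave 846 to 1606 genes called in both fits, with 945 without shluc replicate 1, 941 without shEZH2#1 replicate 2 and 846 without shEZH2#1 replicate 3. Without the correction only, 619 genes were called higher (median GC content 62.9%) and 414 lower (44.2%). With it only, 230 were called higher (47.9%) and 680 lower (59.7%). Below, a gene is said to have risen or fallen only if both fits called it. The correction also removes any true change that follows GC content or length, and how much of the trend is of that kind was not tested.

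**Figure D2:**
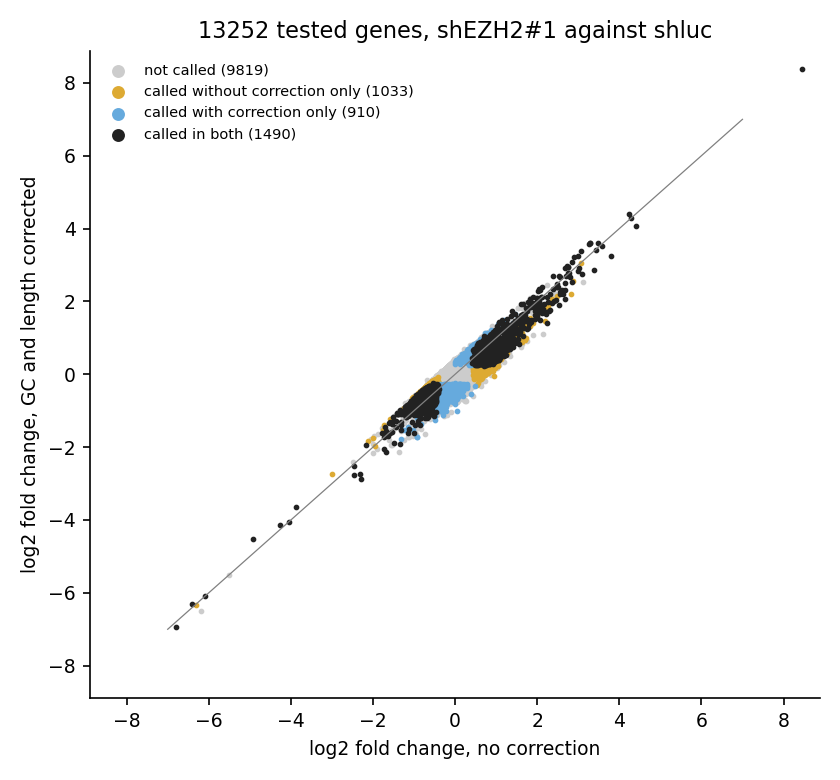
Log2 fold change of each tested gene, shEZH2#1 against shluc, without (x axis) and with (y axis) the GC and length correction; the line marks equal values. Black points are the 1490 genes called in both fits, yellow and blue points those called in only 1 of them, and no black point has opposite signs on the axes.

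Genes on either side of the correction include known cell cycle and membrane genes. CDK6, a G1 cyclin-dependent kinase, measured 12.3, 20.7 and 9.06 CPM in shluc and 7.86, 6.22 and 8.3 CPM in shEZH2#1, and gave -0.91 ± 0.24, adjusted p = 0.0133, against -0.52, adjusted p = 0.0596, with the correction. CPEB4, which controls the poly(A) tails of mRNAs, and LPP, a focal adhesion protein, went the same way (-0.88 and -0.52; -0.99 and -0.63). On the GC-rich side the homeobox gene PRRX2 was called at 1.12 and not at 0.46 (adjusted p = 0.056). Long AT-rich genes went the other way: TPR, a nuclear pore basket protein, measured 11.1, 15.8 and 12.6 CPM in shluc and 20.3, 18.8 and 17.1 CPM in shEZH2#1, and was called higher only with the correction (0.86, adjusted p = 0.00215, against 0.51 ± 0.20, adjusted p = 0.077). UBR1, a ubiquitin ligase of the N-degron pathway, and NBAS, a vesicle tethering factor, behaved like TPR (0.84 and 0.86 with the correction). MRPL36, a mitochondrial ribosomal protein, and TSPAN10, a tetraspanin, were called lower only with it (-1.24 and -1.05). By position, chromosome 19, rich in G and C (median 59.8%), held 225 calls higher and 25 lower among 929 tested genes, and 98 and 20 in both fits. Chromosomes 13 and 18 held 6 higher and 23 lower of 206, and 2 higher and 19 lower of 174. In both fits chromosome 13 held 2 higher and 10 lower, and chromosome 18 1 higher and 12 lower. Over all tested genes 11.2% were called higher and 7.89% lower, and 6.48% and 4.76% in both fits. No rule set in advance chose these chromosomes.

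Among genes that rose, the median log2 fold change was 0.89. In both fits 194 genes rose by at least 2-fold (1.46% of tested genes) and 54 fell by as much (0.407%). Of the 859 that rose, 193 had a control mean under 5 CPM, and of the 631 that fell, 44 did. The share of all tested genes under that level was not counted, so these counts are a description. Low levels were common among tested genes: a filter of 5 CPM in 3 libraries kept 8679 genes, against the 13252 tested here. Over all tested genes, the 3 hairpin values did not overlap the 3 controls in 37.2%, so separation alone is common here.

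CPT1B (ENSG00000205560, chromosome 22, 50568861 to 50578465), the muscle form of the enzyme that hands fatty acids to mitochondria, had the largest rise under the rule for named genes. It measured 1.66, 2.35 and 4.07 CPM in shluc and 21.1, 22.6 and 20.9 CPM in shEZH2#1, and every hairpin library lay more than 5-fold above the highest control. The log2 fold change was 3.00 ± 0.24, adjusted p = 4.02e-07, and 2.83, adjusted p = 1.07e-05, with the correction. CPT1B lies inside the read-through gene CHKB-CPT1B on the same strand, which gave 3.27, 0.797 and 0.671 CPM in shluc and 10.8, 10.2 and 12.1 CPM in shEZH2#1, and counts of the pair may have been split between them. CHKB itself, a choline kinase upstream, rose less (0.88 ± 0.17, adjusted p = 0.00152). ADAMTS10 (ENSG00000142303, chromosome 19, 8580242 to 8610735), a secreted metalloprotease tied to fibrillin fibres, measured 1.43, 1.67 and 1.72 CPM in shluc and 7.08, 10.2 and 9.41 CPM in shEZH2#1 (2.46 ± 0.23, adjusted p = 2.34e-06). DNAH1 (ENSG00000114841, chromosome 3, 52316319 to 52400491), a heavy chain of ciliary dynein, measured 4.15, 2.91 and 1.49 CPM in shluc and 12.5, 13 and 19.2 CPM in shEZH2#1 (2.38 ± 0.28, adjusted p = 2.78e-05). In both genes every hairpin library lay above every control.

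GPNMB, a glycoprotein of lysosomes and melanosomes, measured 2.21, 6.94 and 6.32 CPM in shluc and 18.1, 19 and 26.5 CPM in shEZH2#1, and shluc replicate 1 was the lowest library (2.03 ± 0.32, adjusted p = 0.000366). CLSTN3, a calsyntenin of the plasma membrane, had controls that hardly differed, at 7.83, 7.74 and 7.95 CPM, against 30.1, 29.2 and 35.4 CPM with the hairpin (2.01 ± 0.16, adjusted p = 4.02e-07). MAPK8IP3, a scaffold that links JNK kinases to kinesin, was the most abundant of the 12 largest rises, at 50.2, 43.5 and 46.2 CPM in shluc and 155, 157 and 179.7 CPM in shEZH2#1 (1.82 ± 0.16, adjusted p = 9.05e-07). CPNE7, a calcium-dependent membrane-binding copine, and GALNT9, which starts O-linked sugar chains, rose by 1.95 ± 0.18 and 1.85 ± 0.19. IGFN1, a muscle protein with immunoglobulin domains, rose by 2.50 ± 0.48 from a control group in which replicate 1 held 0.0461 CPM, the value of 1 count. PLA2G4B, a cytosolic phospholipase A2, rose by 2.85 ± 0.29 but overlaps the read-through gene JMJD7-PLA2G4B. NPIPB3 (1.81 ± 0.28) belongs to a family of near-identical copies on chromosome 16. Both are uncertain for those reasons.

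SUSD2 (ENSG00000099994, chromosome 22, 24181259 to 24189110), a membrane protein with a sushi domain, had the largest fall without the correction among genes that averaged 5 CPM or more with groups that do not overlap, from 16.4, 10.9 and 11.7 CPM in shluc to 4.11, 4.95 and 4.78 CPM in shEZH2#1. The groups did not overlap, and the log2 fold change was -1.50 ± 0.22, adjusted p = 0.000214, and -1.88, adjusted p = 1.83e-05, with the correction. MAPK4 (ENSG00000141639, chromosome 18, 50560078 to 50731824), an atypical MAP kinase, measured 21.1, 18.9 and 12.3 CPM in shluc and 6.41, 6.28 and 6.76 CPM in shEZH2#1 (-1.43 ± 0.20, adjusted p = 0.000177). SSR1, the alpha subunit of the complex that assists protein entry into the endoplasmic reticulum, measured 63.6, 80.1 and 74.1 CPM in shluc and 29.6, 28.5 and 23 CPM in shEZH2#1 (-1.42 ± 0.15, adjusted p = 9.32e-06). Its locus overlaps CAGE1 on the same strand.

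MUC1 (ENSG00000185499, chromosome 1, 155185824 to 155192916), the transmembrane mucin of epithelial surfaces, was the most abundant of the 12 largest falls. It measured 243, 233 and 275 CPM in shluc and 87.3, 109 and 99.1 CPM in shEZH2#1, a fall in every hairpin library (-1.34 ± 0.19, adjusted p = 0.00018). Its transcript is among the richest in G and C (71.2%), and with the correction the fall was larger (-1.92, adjusted p = 0.000113). A gene of no known function, AL713999.1, overlaps it. ATP1B3, a beta subunit of the sodium pump, had tight groups at 149.9, 162 and 160.2 CPM in shluc and 66.4, 72.2 and 62.1 CPM in shEZH2#1 (-1.23 ± 0.14, adjusted p = 2.63e-05). MCAM, the adhesion molecule CD146, measured 117, 113 and 82.4 CPM in shluc and 40.1, 41.7 and 43.9 CPM in shEZH2#1 (-1.31 ± 0.17, adjusted p = 6.48e-05). CTH, which makes cysteine from cystathionine, fell by 1.26 on the log2 scale, SLC16A6, of the monocarboxylate transporter family, by 1.40, and QSER1, a protein that guards DNA methylation valleys, by 1.35. FTO, an RNA demethylase, fell by 1.22 and LAMA1, the alpha-1 chain of laminin, by 1.22, and in both the control replicate 3 was the lowest control. NPY4R, a receptor of pancreatic polypeptide, fell by 1.32, but a near-identical copy of this gene exists, so its counts are uncertain. All 24 genes named here as the largest rises and falls were called in both fits when each of the 6 libraries was left out in turn.

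**Figure D3:**
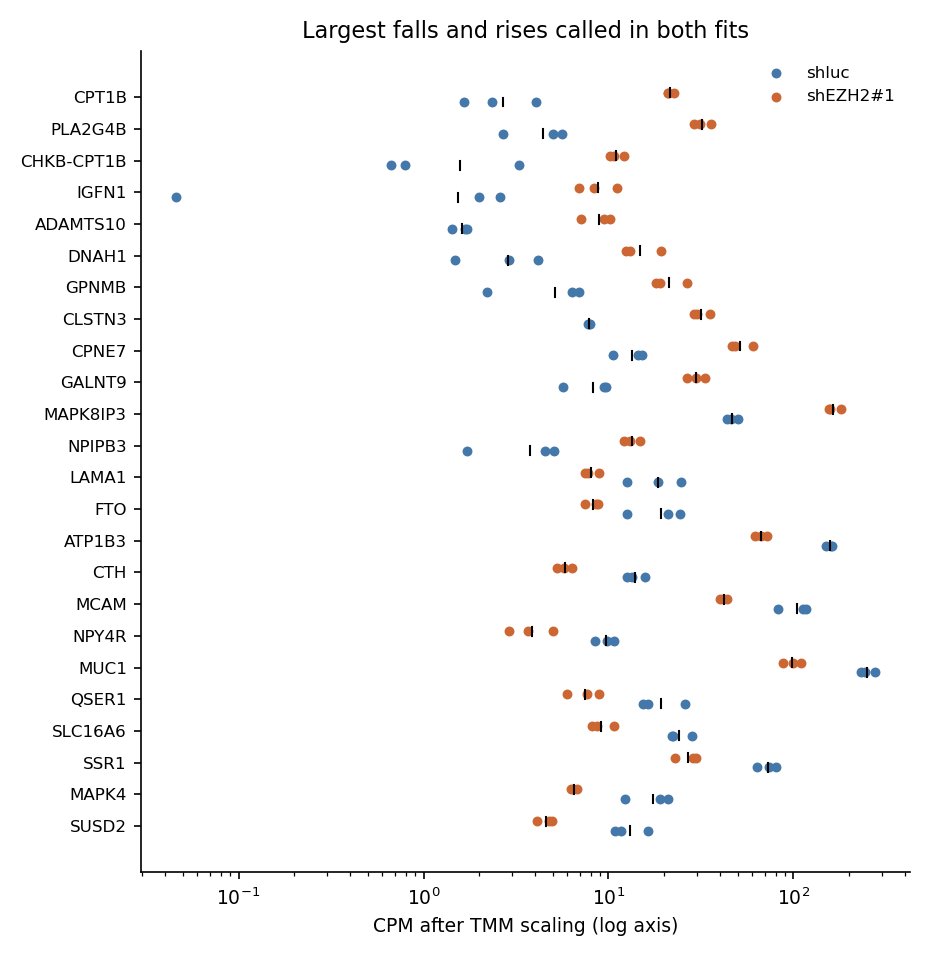
CPM after TMM scaling (x axis, log scale) of the 12 largest rises and 12 largest falls called in both fits among genes that averaged 5 CPM or more. The 3 shluc (blue) and 3 shEZH2#1 (orange) libraries are points and group means are black ticks. In no gene do the groups overlap, which the rule for naming them required.

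Below 5 CPM, 3 genes chosen after their values were seen came close to appearing or vanishing. ZNF467, a zinc finger protein, measured 0.23, 0.279 and 0.335 CPM in shluc and 4.23, 3.2 and 4.48 CPM in shEZH2#1 (3.79 ± 0.40, adjusted p = 7.56e-06). NKD1, a brake on WNT signalling, measured 3.09, 2.31 and 3.64 CPM in shluc and 0.302, 0.0604 and 0.0735 CPM in shEZH2#1 (-4.27 ± 0.84, adjusted p = 0.00167). LCP1, the actin bundler L-plastin, measured 1.66, 1.2 and 2.2 CPM in shluc and 0, 0.121 and 0.22 CPM in shEZH2#1 (-3.88 ± 0.79, adjusted p = 0.00208). All 3 passed in both fits, on few counts in the group where each was low.

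Part of the cell division genes fell and none rose. Of 52 tested members of a mitosis list, 0 rose and 14 fell in both fits, against 6.48% and 4.76% of all tested genes, and 10 of the 14 were called in both fits whichever library was left out. The median log2 fold change was -0.50 (-0.32 with the correction), and 21 were called lower without the correction and 18 with it. The count of 21 was 12 without shluc replicate 2, 13 without shEZH2#1 replicate 2 and 10 without shEZH2#1 replicate 3, whereas with the correction it stayed between 13 and 15. MKI67, the proliferation marker Ki-67, measured 163, 236 and 126 CPM in shluc and 81.6, 77.5 and 86.4 CPM in shEZH2#1 (-1.10 ± 0.19, adjusted p = 0.000674). KPNA2, an importin abundant in dividing cells, measured 240.0, 275 and 256 CPM in shluc and 142, 134 and 128 CPM in shEZH2#1 (-0.93 ± 0.15, adjusted p = 0.0005). NEK2, a centrosome kinase, measured 13, 13.6 and 12.2 CPM in shluc and 7.86, 6.4 and 5.59 CPM in shEZH2#1 (-0.96 ± 0.18, adjusted p = 0.00146). In all 3 the lowest control lay above the highest hairpin library. AURKA, the spindle kinase Aurora A, fell by 0.87, its activator TPX2 by 0.77, the kinesin KIF20A by 0.92 and the spindle protein SPAG5 by 0.95. Of the chromosomal passenger complex, BIRC5 (survivin), CDCA8 (borealin) and INCENP fell by 0.66, 0.64 and 0.67. Cyclin B1 (CCNB1, -0.71 ± 0.19, adjusted p = 0.0115) and its kinase CDK1 (-0.61 ± 0.18, adjusted p = 0.0236) also fell. PLK1 was called only with the correction (-0.31 without, -0.51 with), and TOP2A in neither fit (-0.49 ± 0.18, adjusted p = 0.061).

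Promoters of mitotic genes often carry CCAAT boxes and the cell cycle homology region, whose core reads TTTGAA. The 150 bases before the start of the 4 mitosis genes named by the rule are printed to show these letters beside genes that fell (RefSeq, GRCh38.p14, coding strand 5′ to 3′, capitals for TTTGAA or CCAAT on either strand, which share 1 base in MKI67).
KPNA2, chr17:68035585-68035734, plus strand: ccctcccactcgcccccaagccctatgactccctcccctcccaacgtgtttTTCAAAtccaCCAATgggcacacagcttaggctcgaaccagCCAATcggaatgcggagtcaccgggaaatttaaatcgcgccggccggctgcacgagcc
MKI67, chr10:128126424-128126573, minus strand: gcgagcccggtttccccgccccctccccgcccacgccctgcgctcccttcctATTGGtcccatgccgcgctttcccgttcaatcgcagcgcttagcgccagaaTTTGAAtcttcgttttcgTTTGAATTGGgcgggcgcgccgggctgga
NEK2, chr1:211675622-211675771, minus strand: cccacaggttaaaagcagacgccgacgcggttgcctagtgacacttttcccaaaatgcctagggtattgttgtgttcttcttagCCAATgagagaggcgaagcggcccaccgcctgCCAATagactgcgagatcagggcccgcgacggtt
SPAG5, chr17:28599026-28599175, minus strand: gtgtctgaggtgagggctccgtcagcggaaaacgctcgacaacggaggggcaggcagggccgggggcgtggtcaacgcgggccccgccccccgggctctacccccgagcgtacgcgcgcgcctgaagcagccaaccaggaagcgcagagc
The KPNA2 window held 1 TTTGAA and 2 CCAAT matches and MKI67 2 of each, NEK2 held 2 CCAAT and no TTTGAA, and SPAG5 neither. In the 250 bases upstream, TTTGAA was found in 24 of 46 matched promoters of the mitosis list (52.2%) and in 8.05% of 9971 matched promoters of tested genes, and CCAAT in 69.6% and 35.2%. Over all 27305 promoters of the table the shares were 13.6% and 33.0%. Of 485 matched genes that fell, 11.3% held TTTGAA, and of 595 that rose, 3.70%. Of 10 matched mitosis genes that fell, 5 held TTTGAA (50%), near the 52.2% of the whole list, and 9 held CCAAT (90%). A match describes letters in a window and not binding.

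Of 46 tested DNA replication genes, 0 rose and 4 fell (8.70%), against 6.48% and 4.76% of all tested genes, with medians of -0.08 and, corrected, 0.05. Without the correction 7 were called lower (15.2%, against 7.89% of all tested genes), and 1 to 6 when single libraries were left out. RPA1, the large subunit of the single-strand binding complex, fell most, from 140.0, 128 and 120.4 to 86.7, 73.1 and 69.6 CPM (-0.76 ± 0.16, adjusted p = 0.00281). The nucleotide synthesis genes TYMS and RRM2 fell by 0.54 and 0.55 and the helicase subunit MCM3 by 0.45, of which MCM3 was lost with RLE scaling and a replicate block. Of 41 double-strand break repair genes, 1 rose (2.44%) and 3 fell (7.32%). PRKDC, the catalytic subunit of the end-joining kinase DNA-PK, measured 172, 264 and 129 CPM in shluc and 106, 91.1 and 101 CPM in shEZH2#1 (-0.92 ± 0.20, adjusted p = 0.00325), with shluc replicate 2 the highest library. MDC1, which binds marked chromatin at breaks, fell by 0.63 and the Ku70 gene XRCC6 by 0.49, which RLE scaling and a replicate block ended.

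Part of the p53 targets rose and none fell. Of 31 tested, 8 rose (25.8%, against 6.48% of all tested genes) and 0 fell, with medians of 0.26 and, corrected, 0.33. SFN, the checkpoint protein 14-3-3 sigma, measured 438, 323 and 499.6 CPM in shluc and 771, 867 and 884 CPM in shEZH2#1 (1.00 ± 0.17, adjusted p = 0.000533). CDKN1A, the cyclin-dependent kinase inhibitor p21, measured 149, 120.1 and 151 CPM in shluc and 214, 203 and 256 CPM in shEZH2#1 (0.68 ± 0.15, adjusted p = 0.00427). In both, every hairpin library lay above every control. FDXR, a mitochondrial reductase, and PHLDA3, an inhibitor of AKT, rose by 0.98 ± 0.18 and 0.93 ± 0.17, and the repair gene DDB2 by 0.68 ± 0.15. MDM2, which degrades p53, gave -0.18 ± 0.23, adjusted p = 0.628. BBC3 (PUMA) and GDF15 were called higher without the correction only (0.80 ± 0.19, adjusted p = 0.00586 and 0.46 ± 0.15, adjusted p = 0.0392). Rises of GC-rich targets were smaller with the correction: SFN (62.8% G and C) went from 1.00 to 0.47 with the correction and FDXR (64.3%) from 0.98 to 0.50. Without each library in turn 7 to 10 targets were called higher, and 6 to 9 with the correction, and none lower.

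Of 17 tested members of the BCL2 family, 5 rose (29.4%, against 6.48% of all tested genes) and 0 fell, and all 5 are known to promote cell death. The median was 0.41, and 0.33 corrected. The effectors BAK1 and BAX, which pierce the mitochondrial membrane, measured 178, 136 and 187 CPM in shluc and 328, 312 and 377 CPM in shEZH2#1 for BAK1 (1.02 ± 0.16, adjusted p = 0.000355) and 37.3, 25 and 42.6 CPM in shluc and 55.4, 64.5 and 74.2 CPM in shEZH2#1 for BAX (0.89 ± 0.18, adjusted p = 0.00263). BAD, BIK and BMF, of the BH3-only branch, rose by 1.32 ± 0.19, 1.58 ± 0.19 and 1.04 ± 0.21. BIK climbed from 6.86, 4.51 and 7.71 to 20.4, 17.1 and 19.5 CPM. The protective members BCL2L1 (BCL-XL) and MCL1 did not pass (-0.08 ± 0.15, adjusted p = 0.726 and -0.22 ± 0.14, adjusted p = 0.306). BAX is also counted among the p53 targets. All 5 rises were called in both fits without each library in turn.

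Interferon response genes rose in part. Of 42 tested, 9 rose (21.4%, against 6.48% of all tested genes) and 1 fell (ADAR; 2.38%, against 4.76%), with medians of 0.15 and, corrected, 0.29. IFI27 (ENSG00000165949, chromosome 14, 94104836 to 94116698), a gene known for strong induction by interferon, was nearly absent from controls, at 0.23, 0.877 and 0.91 CPM, and measured 7.44, 5.07 and 8.97 CPM with the hairpin (3.39 ± 0.44, adjusted p = 6.66e-05). The transcription factors IRF7 and IRF9 measured 4.7, 4.23 and 4.07 CPM in shluc and 11.4, 13.2 and 10.9 CPM in shEZH2#1 for IRF7 (1.45 ± 0.19, adjusted p = 6.48e-05) and 10.3, 7.66 and 9.82 CPM in shluc and 30.7, 22.2 and 30.2 CPM in shEZH2#1 for IRF9 (1.58 ± 0.18, adjusted p = 2.63e-05). IFI6, ISG15, ISG20, OASL, IFI35 and the helicase regulator DHX58 rose by 1.31, 1.08, 1.47, 0.81, 0.83 and 0.85. MX1, an antiviral GTPase, was called in neither fit (0.74 ± 0.37, adjusted p = 0.176). In antigen presentation by MHC class I, 3 of 21 rose (14.3%) and 1 fell (4.76%). NLRC5, the activator of class I genes, measured 56.7, 49 and 50.2 CPM in shluc and 145, 124 and 145 CPM in shEZH2#1 (1.41 ± 0.15, adjusted p = 8.57e-06), the immunoproteasome genes PSMB9 and PSMB10 rose by 0.87 ± 0.19 and 0.78 ± 0.17, and the chaperone CANX fell by 0.64. Of 29 chemokine and NF-kB target genes, 3 rose (10.3%) and 1 fell (3.45%). CXCL1 and CXCL6 rose by 1.30 ± 0.31 and 2.52 ± 0.58 from at most 1.25 and 0.862 CPM in shluc. IL18 was called at 0.58 ± 0.19 but in only 2 of 6 uncorrected fits that left out a library. It was not called with upper quartile scaling, a stricter filter or a replicate block. The inhibitor TNFAIP3 (A20) fell by 1.03.

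RNAs encoded by mitochondrial DNA fell, and few nuclear genes for the same complexes changed. Of 13 mitochondrial genes tested, 9 fell (69.2%, against 4.76% of all tested genes) and 0 rose, with medians of -0.85 and -0.87, and all 9 kept their call in both fits without each library in turn. MT-CO1, a cytochrome oxidase subunit and the most abundant of them, measured 8831, 9967 and 8328 CPM in shluc and 4943, 4368 and 4901 CPM in shEZH2#1 (-0.93 ± 0.16, adjusted p = 0.000572). MT-CO3 measured 4196, 4513 and 4462 CPM in shluc and 2236, 2385 and 2258 CPM in shEZH2#1 (-0.94 ± 0.16, adjusted p = 0.000799), and MT-ND4, a complex I subunit, 3099, 3245 and 3165 CPM in shluc and 1725, 1499 and 1671 CPM in shEZH2#1 (-0.96 ± 0.16, adjusted p = 0.000683). With the correction MT-CO1, MT-CO3 and MT-ND4 fell by 0.83, 1.01 and 0.87. Mitochondrial transcripts made up 3.51% ± 0.525 of counts in shluc and 1.56% ± 0.147 in shEZH2#1 (SD, n = 3), which an exact two-sided permutation test put at p = 0.1, the smallest possible. Of 72 nuclear subunits, 3 rose (4.17%) and 1 fell (1.39%), below the 6.48% and 4.76% of all tested genes. NDUFS7 of complex I and CYC1 and UQCRC1 of complex III rose by 0.92 ± 0.18, 0.90 ± 0.17 and 0.81 ± 0.18, and ATP5F1A of the ATP synthase fell by 0.71. The median of the nuclear list was 0.08 (0.03 corrected), and its 9 calls higher without the correction were 18 without shluc replicate 3.

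Of 49 tested genes for protein entry into the endoplasmic reticulum and folding there, 0 rose and 13 fell (26.5%, against 4.76% of all tested genes), with medians of -0.41 and, corrected, -0.27. Beside SSR1, the oligosaccharyltransferase subunits RPN1 and RPN2 measured 458, 430.0 and 372 CPM in shluc and 279, 243 and 240.4 CPM in shEZH2#1 for RPN1 (-0.72 ± 0.17, adjusted p = 0.00595) and 367, 434 and 333 CPM in shluc and 212, 197 and 207 CPM in shEZH2#1 for RPN2 (-0.88 ± 0.15, adjusted p = 0.000683). SRPRA, the receptor of the signal recognition particle, fell by 0.65. STT3A, XBP1, HYOU1, PDIA4, HSP90B1, HERPUD1, SPCS1, SRP68 and CANX were the other 9. The chaperone HSPA5 (BiP) was called without the correction only (-0.52 ± 0.16, adjusted p = 0.0268). The calls leaned on single libraries: of 18 lower without the correction, 9 were called without shEZH2#1 replicate 2 and 8 without replicate 3, and 4 genes (SSR1, RPN1, RPN2 and SRPRA) were called in both fits whichever library was left out. Of 28 heat shock genes 4 fell (14.3%) and 0 rose, with HSPB8 (-0.70 ± 0.16) and HSP90AA1 (-0.66 ± 0.15) the furthest. Among 25 ATF4 targets and serine synthesis genes 6 fell (24%) and 1 rose (SESN2; 4%, against 6.48% of all tested genes). Without the correction the 6 calls lower were 2 without shEZH2#1 replicate 3. The arginine transporter SLC7A1 measured 83.9, 100.4 and 61 CPM in shluc and 40.4, 40 and 42.5 CPM in shEZH2#1 (a fall of 1.00 on the log2 scale, adjusted p = 0.00082), and asparagine synthetase ASNS and the tryptophanyl-tRNA synthetase WARS1 fell by 0.77 and 0.73.

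In lipid handling, 6 of 31 acyl-CoA and fatty acid oxidation genes rose (19.4%) and 2 fell (6.45%), with CPT1B and ACSL4 far ahead of the rest. Over all tested genes, 6.48% rose and 4.76% fell. ACSL4 (ENSG00000068366, chromosome X, 109624244 to 109733403), which activates polyunsaturated fatty acids and is known for its part in ferroptosis, measured 1.47, 0.399 and 1.1 CPM in shluc and 9.56, 8.45 and 6.69 CPM in shEZH2#1 (3.07 ± 0.34, adjusted p = 1.78e-05). Its locus holds KCNE5 on the same strand. ECI1 and ACADS, of mitochondrial beta-oxidation, rose by 1.03 ± 0.17 and 0.79 ± 0.17. Of 35 sterol and fatty acid synthesis genes, 2 rose (5.71%) and 3 fell (8.57%). MVK and PMVK, consecutive kinases of the mevalonate pathway, both rose by 0.89, while the desaturase SCD measured 364, 465 and 308 CPM in shluc and 203, 192 and 192 CPM in shEZH2#1 (-0.95 ± 0.16, adjusted p = 0.000654) and ACLY, which supplies acetyl-CoA, fell by 0.67. Among NRF2 targets and glutathione genes, 4 of 29 rose (13.8%) and 3 fell (10.3%). The aldo-keto reductases AKR1C1 and AKR1C2 rose by 1.61 ± 0.22 and 1.13 ± 0.18, but the sequences of these paralogs are so alike that reads may have been shared. GPX4, which repairs lipid peroxides, measured 323, 206 and 398 CPM in shluc and 591, 627 and 656 CPM in shEZH2#1 (1.02 ± 0.19, adjusted p = 0.00122), and its rise was smaller with the correction (0.39, adjusted p = 0.00457). Of 35 glycolysis and hypoxia genes, 1 rose (2.86%) and 6 fell (17.1%). LDHA, lactate dehydrogenase, measured 1216, 1483 and 1411 CPM in shluc and 917, 814 and 769 CPM in shEZH2#1 (-0.72 ± 0.16, adjusted p = 0.00364), and the glucose transporter SLC2A3 fell by 0.90. The 9 calls lower in that list without the correction were 5 without shluc replicate 2, 2 without shEZH2#1 replicate 2 and 3 without shEZH2#1 replicate 3. LDHA and SLC2A3 kept their call in both fits whichever library was left out.

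Matrix genes changed in both directions. Of 43 tested, 6 rose (13.95%) and 12 fell (27.9%), against 6.48% and 4.76% of all tested genes, and all 6 rises and 8 of the falls were called in both fits whichever library was left out. The 14 calls lower without the correction were 9 without shEZH2#1 replicate 3. Fibronectin (FN1) measured 93, 142 and 127 CPM in shluc and 293, 279.8 and 352 CPM in shEZH2#1 (1.35 ± 0.17, adjusted p = 6.48e-05), and LAMA5, a laminin alpha chain, 721, 605 and 586 CPM in shluc and 1612, 1623 and 1854 CPM in shEZH2#1 (1.41 ± 0.17, adjusted p = 4.7e-05). SPARC, a collagen-binding protein, rose from 0.599, 2.27 and 2.49 to 5.87, 7.73 and 10.1 CPM and COL16A1 by 0.90 ± 0.16. THBS2, a thrombospondin, rose by 2.74 ± 0.71 but from at most 0.24 CPM. Chains of basement membrane collagen IV fell: COL4A1 by 0.66, COL4A2 by 0.65 and COL4A5 by 1.10. LAMB1, a laminin beta chain, measured 59.4, 69.5 and 61.6 CPM in shluc and 33.1, 29.5 and 31.3 CPM in shEZH2#1 (-1.02 ± 0.15, adjusted p = 0.000222), and COL12A1 and COL5A1 fell by 1.13 and 0.62. COL1A1, often read as a fibroblast marker, measured 49.3, 42 and 49.1 CPM in shluc and 24.4, 27.4 and 26.4 CPM in shEZH2#1 (-0.84 ± 0.15, adjusted p = 0.00115), while DCN, another of that list, rose (1.15 ± 0.24, adjusted p = 0.00311) and COL1A2 and PDGFRA were at 0. The 12 fibroblast and smooth muscle markers summed to 78.3 to 81.4 unscaled CPM in shluc and 52.1 to 69.5 in shEZH2#1. After TMM scaling, the 6 tested ones summed to 61.2 to 70.3 CPM in shluc and 56.0 to 65.0 in shEZH2#1, so the groups overlapped. The part of these markers in these results was not tested. CDH5, known from endothelium, fell from 19.2, 19.7 and 13.4 to 7.92, 7.61 and 7.13 CPM (-1.20 ± 0.18, adjusted p = 0.000222) with KDR at 0.

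Of 14 tested members of a keratin and vimentin list, 2 rose and 2 fell (14.3% each, against 6.48% and 4.76% of all tested genes). KRT15, a keratin of basal cells, rose from 1.7, 1.52 and 1.39 to 5.93, 5.68 and 7.42 CPM (2.04 ± 0.27, adjusted p = 6.48e-05) and the stress keratin KRT16 from 2.72, 1.79 and 2.92 to 7.92, 6.82 and 8.89 CPM (1.67 ± 0.25, adjusted p = 0.000242). KRT19 fell from low levels (-1.69 ± 0.48, adjusted p = 0.0179) but was not called by DESeq2, and vimentin (VIM) fell by 0.47 but was not called with RLE scaling or a replicate block. The abundant KRT8, KRT18 and KRT17 did not pass without the correction (0.43, 0.41 and 0.32), and KRT8 was called higher with it (0.44). CLDN4, a tight junction claudin, measured 48.6, 39.6 and 50.3 CPM in shluc and 108, 105 and 115 CPM in shEZH2#1 (1.24 ± 0.15, adjusted p = 2.78e-05), TGM1, which crosslinks the cornified envelope, rose by 1.01 ± 0.17, and the integrin ITGB4 of hemidesmosomes by 0.80 ± 0.15. The transcription factor SNAI2 (Slug) fell by 1.01 and the receptor kinase AXL by 0.62.

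Immediate early genes fell in part. Of 29 tested, 0 rose and 5 fell (17.2%, against 4.76% of all tested genes). EGR1, a serum-responsive zinc finger factor, measured 6.54, 8.93 and 6.18 CPM in shluc and 2.12, 2.48 and 2.94 CPM in shEZH2#1 (-1.53 ± 0.25, adjusted p = 0.000455). NR4A1, an orphan nuclear receptor, had tight groups at 93.8, 85.2 and 89.2 CPM in shluc and 45.5, 47.8 and 47.4 CPM in shEZH2#1 (-0.93 ± 0.14, adjusted p = 0.000259). DUSP1, a MAP kinase phosphatase, measured 199, 182 and 173 CPM in shluc and 110.2, 95 and 111 CPM in shEZH2#1 (-0.81 ± 0.14, adjusted p = 0.000918). These 3 kept their call whichever library was left out, and FOS (-0.64 ± 0.21, adjusted p = 0.0366) did not, nor with DESeq2, limma-voom or a replicate block. Of 24 TGF-beta and BMP genes, 0 rose and 4 fell (16.7%). BMP2 measured 33.5, 41.8 and 33.2 CPM in shluc and 21.7, 19.9 and 17.8 CPM in shEZH2#1 (-0.87 ± 0.15, adjusted p = 0.000846). SMAD2 fell by 0.85, and BMP4 by 1.63 from 2.26, 2.23 and 2.78 CPM. The BMP4 call was lost in all 6 fits without the correction that left out a library and in 5 of 6 with it. The 6 calls lower of each of these lists without the correction were 3 and 2 without shEZH2#1 replicate 2 and again 3 and 2 without shEZH2#1 replicate 3.

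Of 12 PRC2 subunits EZH2 alone fell in both fits, and of 20 PRC1 subunits 1 rose, CBX2 (0.48 ± 0.15, adjusted p = 0.0301), and 1 fell, KDM2B (-0.45 ± 0.15, adjusted p = 0.044). Neither call was stable: each passed in 2 of 6 uncorrected fits that left out a library, and CBX2 in 0 and KDM2B in 5 of 6 corrected ones. CBX2 was also lost with no filter, with GC content alone corrected and with a replicate block, and KDM2B with RLE scaling, the 6 libraries alone, the block and without the 2 unnamed identifiers. The PRC1 shares of 5% in each direction lay near those of all tested genes. Of 32 developmental transcription factors often under Polycomb, 0 rose and 1 fell (3.12%), TBX3, a T-box factor, at 44.1, 49.8 and 38.2 CPM in shluc and 27.2, 24.9 and 23.4 CPM in shEZH2#1 (-0.81 ± 0.16, adjusted p = 0.00208). At an adjusted p of 0.05 the corrected fit called 0 of these 32 higher and 4 lower. In the wider circle of the mark, the methyltransferase KMT2D fell (-0.77 ± 0.17, adjusted p = 0.00373), as did the acetyltransferase CREBBP (-0.57 ± 0.18, adjusted p = 0.0313). Among splicing factors, 4 of 33 fell (12.1%, against 4.76% of all tested genes) and 0 rose. The repressor PTBP1 measured 797, 749 and 555 CPM in shluc and 379, 422 and 428 CPM in shEZH2#1 (-0.77 ± 0.17, adjusted p = 0.0041), and the cold-inducible RBM3 fell by 0.92. Of 75 cytosolic ribosomal protein genes, 5 rose (6.67%, near the share of all genes) and 1 fell, with a median of 0.05 (-0.00 corrected), and the 9 calls higher without the correction were 19 without shluc replicate 3.

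**Figure D4:**
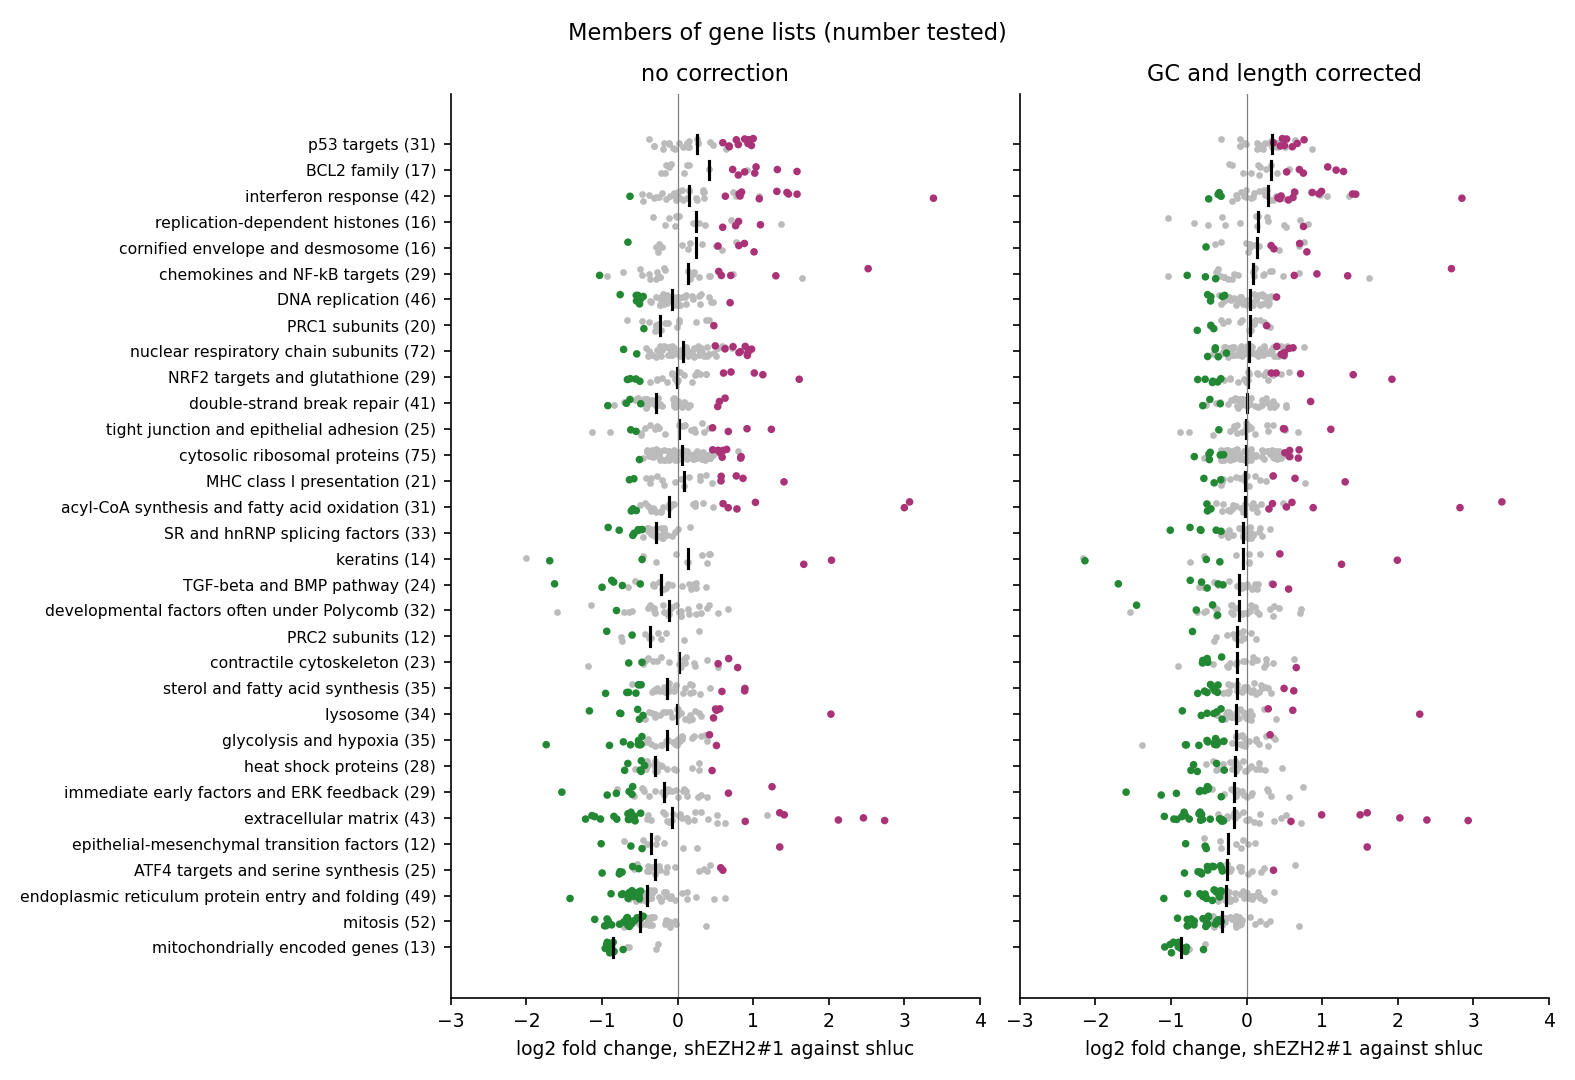
Log2 fold change, shEZH2#1 against shluc (x axis), of every tested member of each gene list with at least 10 tested members, without (left) and with (right) the GC and length correction. Purple and green points were called higher and lower, grey points were not called, and black bars are medians, which run from -0.85 for mitochondrially encoded genes to 0.41 for the BCL2 family on the left.

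The most abundant genes that rose were the ribosomal protein genes RPL13, RPL15 and RPS9, the myosin light chain MYL6 and GPX1, a glutathione peroxidase. GPX1 measured 1080.4, 655 and 1324 CPM in shluc and 2089.7, 2172 and 2363 CPM in shEZH2#1 (1.11 ± 0.20, adjusted p = 0.000907), a call that held without each library. RPL13, RPL15 and MYL6 sat close to the threshold (adjusted p = 0.0392, 0.0498 and 0.022), and without the correction 5 of the 6 removals of a library ended each call. The most abundant that fell were 4 mitochondrial RNAs and ALPP, placental alkaline phosphatase, at 3212, 2804 and 2506 CPM in shluc and 1345, 1509.9 and 1673 CPM in shEZH2#1 (-0.91 ± 0.16, adjusted p = 0.000831). ALPP has near-identical neighbours, so its counts are uncertain.

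The other hairpin served to show where shEZH2#1 stood apart and where it did not. Of the 859 genes that rose with shEZH2#1, 278 were also called higher in both fits with shEZH2#3. Of the 631 that fell, 127 were also called lower in both. The share of all tested genes called with shEZH2#3 against shluc was not counted, so these overlaps have no background and are a description. KPNA2, of the mitosis list, measured 70.6, 87.8 and 99.0 CPM with shEZH2#3, below shEZH2#1. Of the 52 tested members of that list, 17 were lower in shEZH2#3 than in shEZH2#1 in both fits and 0 higher. Tested directly, 3311 genes (25%) differed between shEZH2#1 and shEZH2#3, 3741 (28.2%) with the correction and 2535 (19.1%) in both fits with the same sign. EZH2 itself was lower in each hairpin group than in shluc, and between the hairpins it gave 0.02 ± 0.19, adjusted p = 0.943. MUC1 had the widest gap among the 24 largest rises and falls: shEZH2#3 libraries measured 948, 604 and 522 CPM against 243, 233 and 275 in shluc and 87.3, 109 and 99.1 in shEZH2#1, so the hairpins lay on opposite sides of the control (-2.81 ± 0.20, adjusted p = 4.76e-08). CPT1B measured 7.04, 6.61 and 7.57 CPM with shEZH2#3, above the controls but below shEZH2#1 (1.60 ± 0.22, adjusted p = 3.58e-05). The mitochondrial list, which fell here, was lower in shEZH2#1 than in shEZH2#3 for 13 of 13 tested members by the direct test. Mitochondrial transcripts made up 7.31, 5.46 and 5.22% of counts with shEZH2#3, above the 3.19, 4.12 and 3.23% of shluc. In this share, too, the hairpins lay on opposite sides of the control. MT-CO1 measured 18909, 17537 and 16618 CPM with shEZH2#3, above every control. EGR1, at 20.8, 16.8 and 11.5 CPM with shEZH2#3, and NR4A1, at 177, 197 and 166 CPM, also lay on opposite sides of the control (-2.71 ± 0.25, adjusted p = 3.34e-07 and -1.94 ± 0.14, adjusted p = 4.76e-08). The values for both hairpins rest on the same 3 control libraries. A gene called with shEZH2#1 alone is therefore a change in these 3 hairpin libraries, and a change of the hairpin and a change from lower EZH2 cannot be told apart for it.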

How the data were processed

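Poly(A) RNA was sequenced from stranded (dUTP) libraries, per the labels' protocols. The submitters' processing notes name fastp, HISAT2, StringTie and GRCh38 without versions. For the counting step, annotation and strand setting, the sources used here give nothing. Per gene, the authors deposited estimated counts, some with decimals, which were rounded to whole numbers. Symbols were matched by Ensembl identifier (51996 from the naming table, 342 from GENCODE 29, 5567 with none).

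All 9 libraries were fitted together in edgeR 4.0.16 (R 4.3.3, TMM scaling, filterByExpr, quasi-likelihood test, 6 residual degrees of freedom), and calls needed a p below 0.05 after Benjamini-Hochberg adjustment. The standard error is the size of the fold change over the square root of F. The correction took from each library's log2 CPM (prior count 2) a lowess smooth (span 0.3) on GC content and then on log2 length of the longest GENCODE 29 transcript, as an offset, and 303 genes without these values stayed uncorrected. The script was tested on simulated data. Alternatives included DESeq2 1.42.0 and limma-voom (limma 3.58.1). Intervals and floors for counting error were not used.

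Genes were named by rule: EZH2 and its partners; the 12 largest changes in each direction called in both fits, averaging 5 CPM or more, in groups that do not overlap; the 5 most abundant in each direction; up to 5 per direction called in 1 fit only; and up to 4 per list. Other list members are named for their known role, after their values were seen. The comparison, the lists and the rule were chosen with earlier results of these data known. Some members of the lists are counted but not reported here by name.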

Additional observations from a re-analysis of the deposited data

Results flagged for a closer look

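Of the 24 largest rises and falls, 20 differed between the hairpins by the direct test of shEZH2#1 against shEZH2#3 in both fits (edgeR's quasi-likelihood test, Benjamini-Hochberg adjustment over 13252 genes, 3 libraries each), and are given as log2 differences. GPNMB, IGFN1, LAMA1 and QSER1 were not called in both fits. Higher in shEZH2#1 were CHKB-CPT1B at 2.26 ± 0.42, adjusted p = 0.000587, CPT1B at 1.60 ± 0.22, adjusted p = 3.58e-05, PLA2G4B at 1.56 ± 0.27, adjusted p = 0.000308, DNAH1 at 1.52 ± 0.27, adjusted p = 0.000399 and ADAMTS10 at 0.73 ± 0.21, adjusted p = 0.0154. Also higher were CLSTN3 at 1.44 ± 0.15, adjusted p = 2.7e-06, CPNE7 at 1.11 ± 0.17, adjusted p = 0.000132, GALNT9 at 1.21 ± 0.19, adjusted p = 0.000127, MAPK8IP3 at 0.97 ± 0.15, adjusted p = 0.000138 and NPIPB3 at 1.54 ± 0.28, adjusted p = 0.000555. Lower in shEZH2#1 were MUC1 at -2.81 ± 0.20, adjusted p = 4.76e-08, SUSD2 at -1.54 ± 0.22, adjusted p = 4.57e-05, MAPK4 at -1.46 ± 0.21, adjusted p = 4.33e-05, SSR1 at -0.93 ± 0.15, adjusted p = 0.000184 and SLC16A6 at -0.68 ± 0.18, adjusted p = 0.00873. The other falls with a lower level in shEZH2#1 were ATP1B3 at -1.66 ± 0.14, adjusted p = 2.24e-07, CTH at -1.94 ± 0.17, adjusted p = 3.26e-07, FTO at -1.24 ± 0.21, adjusted p = 0.000231, MCAM at -1.62 ± 0.17, adjusted p = 2.42e-06 and NPY4R at -1.57 ± 0.21, adjusted p = 2.81e-05. These genes were not chosen independently of the comparison with shluc, which shares the shEZH2#1 libraries, so the sizes are a description.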

How the results depend on the processing

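Numbers of genes called moved by over 1.5 times when single libraries were left out. Without each of the 6 libraries in turn, 1159 to 3063 genes were called (768 to 1712 higher, 391 to 1351 lower), 1567 to 2573 with the correction (710 to 1146 higher, 852 to 1427 lower), and 846 to 1606 in both fits (523 to 891 higher, 323 to 715 lower). The totals that moved so far were 1550 without shluc replicate 2, 1344 and 1159 without shEZH2#1 replicates 2 and 3, 1599 and 1567 with the correction without shluc replicate 1 and shEZH2#1 replicate 3, and 945, 941 and 846 in both fits without shluc replicate 1 and shEZH2#1 replicates 2 and 3. Corrected calls lower were 867 without shluc replicate 2 and 857 without shEZH2#1 replicate 3. In all, 679 genes (452 higher, 227 lower) were called in both fits with every library and without each of the 6. Requiring at least a 2-fold change left 494 (388 higher, 106 lower), by construction. Correcting for GC content alone called 943 higher and 1089 lower. The share of calls that were higher, 58.6%, was 45.4% with the GC and length correction, 46.4% with GC alone, 47.3% under a stricter filter (5 CPM in 3 libraries) and 68.7% without the 2 abundant unnamed identifiers. Spearman's rho of fold change and GC content was 0.259 with no filter and 0.339 to 0.538 without single libraries; the cause of these moves was not tested.

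EZH2 was called under every alternative run, from -1.07 to -0.58 on the log2 scale when single libraries were left out. Genes that were not called changed sign. With the correction EZH1 stood at 0.060, KDM6A at 0.210 and SUZ12 at 0.125. With GC alone KDM6A stood at 0.110 and SUZ12 at 0.059, and without the 2 unnamed identifiers, corrected (chosen after seeing the data), the 3 stood at 0.059, 0.210 and 0.127. With the correction and 1 library left out (shluc replicates in order, then shEZH2#1 replicates), KDM6A gave 0.212, 0.245, 0.174, 0.251, 0.289 and 0.087, and SUZ12 0.237, 0.150, 0.0012, 0.247, 0.075 and 0.048. EZH1 gave 0.023 and 0.179 without shluc replicates 1 and 2 and 0.036, 0.036 and 0.094 without shEZH2#1 replicates 1 to 3. CSF1R gave -0.020 without shluc replicate 2 and -0.046 without shEZH2#1 replicate 3, and EED 0.120 without the latter. Without the correction, single removals moved EZH1 from -0.29 to 0.0042 and KDM6A from -0.24 to 0.040, both highest without shluc replicate 2, and with shEZH2#3 replicate 1 removed as well (chosen after seeing the data) they stood at 0.014 and 0.049. Of the named genes' other values outside the single-library fits, 2174 kept direction and side of the threshold, 87 lost the call, 36 gained it and 11 changed sign.

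Same-numbered libraries did not deviate together (correlations -0.10, -0.02 and 0.02), so the numbers were not taken as pairs. With a replicate block 2208 genes were called (1400 higher, 808 lower), 1304 in both fits, and 1022 higher and 1179 lower with block and correction together. EZH1, KDM6A and SUZ12 stood at 0.066, 0.211 and 0.119 in the corrected block fit. At 1 count per 0.0399 to 0.0735 CPM, changes of genes under 1 CPM rest on few counts. Of other genes named, the corrected call passed in 1 of 6 fits without a library for ACADS, ATP5F1A and RRM2 and in 2 of 6 for PSMB10 and SNAI2, and the uncorrected call in 1 of 6 for CREBBP, RPL13, RPL15 and MYL6.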

Other observations

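Values of pseudogenes, not described so far, are given without a test. Of 428 tested pseudogenes, 65 were called higher and 4 lower without the correction, and 40 rose and 2 fell in both fits, against 763 and 608 of 11793 protein-coding genes. The pseudogene median was 0.37 on the log2 scale (0.23 corrected), at a median GC content of 52.3% against 49.9% for protein-coding genes. Reads of a pseudogene can come from its parent gene, so each of these counts is uncertain. GPX1P1, a processed copy of GPX1, was called higher only without the correction (1.12 ± 0.34, adjusted p = 0.0275). Long intergenic RNAs gave 6 rises and 1 fall among 242 tested, beside 859 rises (6.48%) and 631 falls (4.76%) among all 13252 tested genes.

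The 2 most abundant identifiers without a symbol did not move alike across the series. In shluc, ENSG00000266658 held 3.69, 2.77 and 3.93% of the library total. Under shEZH2#1 it held 9.81, 13.3 and 12.6%, and under shEZH2#3 7.90, 3.65 and 5.14%. For ENSG00000272060 the control shares were 5.58, 4.19 and 4.52%, those of shEZH2#1 6.00, 6.49 and 9.97%, and those of shEZH2#3 lower, at 3.69, 2.32 and 2.93%. Of the lysosome list, not described so far, 3 of 34 rose (8.82%) and 5 fell (14.7%), against 6.48% and 4.76% of all tested genes. The cholesterol transporter NPC1 measured 61.8, 73.6 and 46.5 CPM in shluc and 37, 31.5 and 38.7 CPM in shEZH2#1 (-0.76 ± 0.17, adjusted p = 0.00422).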
